A study of Homo sapiens with 12 samples.

Results

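Among the mature miRNAs of AC16 exosomes, 7 names that stood lower in libraries labelled Ang than in libraries labelled Con are described here. They are hsa-miR-887-3p, hsa-miR-4699-3p, hsa-miR-504-5p, hsa-miR-3141, hsa-miR-1910-3p, hsa-miR-6511b-5p and hsa-miR-554, taken by name from the 2656 names counted, and all 7 were listed in each of the 12 libraries. They were chosen by their exosome values, lower in Ang than in Con, so the exosome contrast is given as a description with no test, and the cell libraries, which the choice did not use, carry the tests. Small RNA was sequenced from 4 groups of 3 libraries each: exosomes Ang, exosomes Con, whole cells Ang and whole cells Con. The samples are titled Ang and their count columns read AngII, with dose and duration not given in the sources used here. Every group derives from AC16, one established human line made by fusing adult ventricular cardiomyocytes with transformed fibroblasts, and the stated aim of the series concerned exosomal miRNAs of hypertrophic cardiomyocytes. No source says whether replicates were separate cultures, so the p-values here speak only of differences among these libraries, which may be technical.

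A miRNA gene is transcribed as a hairpin from which a short duplex is cut, and either arm, named 5p or 3p, can be loaded into an Argonaute protein. The loaded strand finds messenger RNAs mainly through its seed, bases 2 to 8, and lowers their translation and stability. Exosomes are small vesicles released by cells, and their miRNA content differs from that of the parent cell because some sequences are exported more readily than others and because RNA outside vesicles can be co-isolated.

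The mature sequences are shown because members with a common seed, or with a long common run, can share targets and can also share reads. They are RefSeq sequences on GRCh38.p14, 5′ to 3′, with the seed in capitals, and they include 6 of the 7 members, the other arm of the miR-1910 hairpin and a near-identical paralog of miR-6511b-5p.
hsa-miR-4699-3p: aAUUUACUcugcaaucuucucc
hsa-miR-504-5p: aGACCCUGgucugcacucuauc
hsa-miR-3141: gAGGGCGGguggaggagga
hsa-miR-1910-3p: gAGGCAGAagcaggaugaca
hsa-miR-6511b-5p: cUGCAGGCagaaguggggcugaca
hsa-miR-554: gCUAGUCCugacucagccagu
hsa-miR-1910-5p: cCAGUCCUgugccugccgccu
hsa-miR-6511a-5p: cAGGCAGAaguggggcugacagg
No 2 of these 6 members had the same seed. miR-1910-3p had the seed of miR-6511a-5p, and miR-504-5p had that of miR-4725-5p; the other members with a sequence shared theirs with no counted name that had a RefSeq sequence.

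The hairpins lay on 5 chromosomes. Coordinates are those of the hairpin in GENCODE release 29 on GRCh38. miR-887 lay at chr5:15935182-15935260 on the plus strand in an intron of FBXL7, which encodes an F-box subunit of a ubiquitin ligase. miR-3141 lay on the same chromosome at chr5:154596012-154596072, minus strand, outside any other annotated gene. miR-4699 lay at chr12:81158388-81158461, plus strand, in an intron of the acyl-CoA synthetase gene ACSS3. miR-504 lay at chrX:138667711-138667793, minus strand, in an intron of FGF13, an intracellular fibroblast growth factor homolog that modulates sodium channels. miR-554 lay at chr1:151545796-151545891, plus strand, in an intron of TUFT1, and miR-1910 at chr16:85741621-85741700, minus strand, in an intron of C16orf74. miR-6511b had copies at chr16:2106669-2106753, overlapping an exon of the polycystin gene PKD1 on the same strand, and at chr16:15134075-15134145, in an intron of the pseudogene PKD1P6 and antisense to PDXDC1. The members therefore do not form a genomic cluster.

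Depth and marker levels of the libraries set the limits for what follows. Totals ran from 697049 to 1022550 UMIs in exosomes Ang, from 888518 to 1029883 in exosomes Con, from 413513 to 512840 in cells Ang and from 424041 to 528844 in cells Con. Levels are in CPM, the UMI count scaled to a common library total, and 3 counts equal 2.91 to 7.25 CPM depending on the library, a limit that covers counting error only. Muscle miRNAs, the defining markers of a cardiomyocyte at this level, were low in cells: the list of 6 (miR-1-3p, miR-133a-3p, miR-133b, miR-208a-3p, miR-208b-3p and miR-499a-5p) summed to 273 to 310 CPM in cells Ang and 333 to 369 CPM in cells Con, and none was at 0 in a whole group. In exosomes they summed to 54.3 to 70.4 CPM with Ang and 73.2 to 89.6 CPM with Con, and the neuron pair miR-124-3p and miR-9-5p to 10.4 to 20.1 and 27.0 to 28.2 CPM, against 78.0 to 106 CPM in cells Ang and 54.8 to 81.4 CPM in cells Con. The largest part of the muscle sum in cells was miR-208a-3p, at 155, 152 and 177 CPM with Ang and 202, 252 and 210 CPM with Con. In cells miR-1-3p, miR-133a-3p and miR-133b each stood at 27.3 CPM at most.

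A pair of libraries stood apart from their replicates. Exosomes Con replicate 1 differed from the other Con exosome libraries by a chi-square of 6.57 and 10.6 per degree of freedom, against 1.91 between those, and cells Ang replicate 2 differed from the other Ang cell libraries with 3.997 and 4.37, against 1.99. Blood cell markers, a list of 5 with none at 0 throughout a group, summed to 339, 617 and 459 CPM in exosomes Ang replicates 1, 2 and 3, against 531, 1170 and 1245 CPM in exosomes Con. In cells they summed to 1978, 6498 and 2123 CPM with Ang, against 2203, 2296 and 2082 CPM with Con. Of these sums, miR-223-3p alone made up 1827, 3282 and 1969 CPM with Ang and 2020, 2076 and 1901 CPM with Con. Every other name of the list stood at 145 CPM at most in cells Con. The liver marker miR-122-5p stood at 4.30, 18.8 and 10.8 CPM in exosomes Ang, against 8.74, 123 and 157 CPM in exosomes Con, and at 8.15, 181 and 7.80 CPM in cells Ang, against 7.56, 9.69 and 0 CPM in cells Con. The endothelial pair miR-126-3p and miR-126-5p summed to 84.6, 233 and 96.8 CPM in exosomes Ang, against 130, 434 and 473 CPM in exosomes Con, and to 524, 4665 and 517 CPM in cells Ang, against 575, 595 and 674 CPM in cells Con. Every library derives from AC16 cells or their exosomes, so these levels are not read as numbers of blood, liver or endothelial cells. The source of these other RNAs and their part in the results were not tested. Without exosomes Con replicate 1 the members' exosome log2 changes lay between -1.97 and -0.99, against -2.04 to -1.003 with all libraries. That library was the lowest of the Con exosome libraries in the blood, liver and endothelial markers. Leaving it out therefore cannot show what part those RNAs had.

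In exosomes the 7 names together held 0.755% ± 0.016 of UMIs with Ang and 2.37% ± 0.017 with Con (SD, n = 3 each). In cells they held 0.679% ± 0.043 with Ang and 0.683% ± 0.034 with Con. miR-887-3p held the largest share in each group.

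miR-887-3p was the most abundant. It stood at 3911, 4143 and 4237 CPM in exosomes Ang, against 14094, 14029 and 14491 CPM in exosomes Con. The groups were far apart, and the name went to rank 40 of all names in exosomes Ang, against rank 13 in exosomes Con. On the TMM scale, which adjusts each library total by a single factor, the log2 change was -1.63 (SE 0.053, 3.09-fold lower in Ang). In cells it stood at 3374, 3134 and 2822 CPM with Ang, against 2844, 3089 and 3122 CPM with Con. These ranges overlapped, and the cell change was 0.030 on the log2 scale (95% interval -0.13 to 0.19, adjusted p = 0.898 by edgeR's quasi-likelihood test with Benjamini-Hochberg adjustment over all names), with a sign that turned in a fit to all 12 libraries (-0.022) and without Ang replicate 1 (-0.028) or Con replicate 1 (-0.0069). The other arm, miR-887-5p, was nearly absent, with 21 UMIs summed over exosomes Ang, 13 over exosomes Con, 13 over cells Ang and 15 over cells Con.

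miR-4699-3p moved in opposite directions in the compartments. In exosomes it stood at 379, 399 and 421 CPM with Ang, against 1908, 1819 and 1786 CPM with Con. Its log2 change of -2.04 (SE 0.075, 4.10-fold lower in Ang) was the deepest of the members. In cells it stood at 169, 164 and 172 CPM with Ang, against 112, 103 and 101 CPM with Con. Every Ang cell library lay above every Con cell library, and the cell level rose 1.58-fold (log2 0.66, SE 0.135, 95% interval 0.37 to 0.95, edgeR adjusted p = 0.00633). The call ended without Con replicate 2 (adjusted p = 0.0529, log2 0.63) and stood without Ang replicate 2 (adjusted p = 0.0109). The cell libraries held 239 UMIs of it with Ang and 155 with Con, so the cell counts are much smaller than the 1076 and 5316 in exosomes Ang and Con.

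miR-504-5p stood at 922, 895 and 886 CPM in exosomes Ang, against 2150, 2218 and 2287 CPM in exosomes Con. The exosome log2 change was -1.13 (SE 0.056, 2.19-fold lower in Ang). In cells it stood at 393, 355 and 417 CPM with Ang, against 431, 457 and 389 CPM with Con. The ranges overlapped and the change did not pass (log2 -0.15, 95% interval -0.37 to 0.08, edgeR adjusted p = 0.508). Its other arm, miR-504-3p, had 10 UMIs in exosomes Ang, 17 in exosomes Con, 19 in cells Ang and 15 in cells Con. miR-4725-5p, the name with the same seed, averaged 23.3 ± 7.30 CPM in exosomes Ang and 39.6 ± 5.77 CPM in exosomes Con (SD, n = 3 each), with log2 -0.64 and edgeR adjusted p = 0.0663; it passed with library totals (adjusted p = 0.028) and without exosomes Ang replicate 1 (adjusted p = 0.0236).

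miR-3141 was the member whose cell libraries overlapped the Con exosome libraries. It stood at 298, 305 and 321 CPM in exosomes Ang, against 954, 899 and 900 CPM in exosomes Con, a log2 change of -1.41 (SE 0.080, 2.66-fold lower in Ang). In cells it stood at 1052, 895 and 920 CPM with Ang, against 983, 1143 and 936 CPM with Con. Only the exosomes Ang libraries stood apart from the other groups. The cell change was -0.11 on the log2 scale (95% interval -0.30 to 0.08, edgeR adjusted p = 0.576).

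miR-1910-3p, reported as an exosomal miRNA of breast cancer cells, was lower with Ang in both compartments. It stood at 636, 634 and 590 CPM in exosomes Ang, against 1719, 1674 and 1610 CPM in exosomes Con (log2 -1.27, SE 0.073, 2.40-fold lower in Ang). In cells it stood at 728, 704 and 585 CPM with Ang, against 811, 876 and 950 CPM with Con. Every Ang cell library lay below every Con cell library, and the name fell 1.32-fold in cells (log2 -0.40, SE 0.100, 95% interval -0.61 to -0.19, edgeR adjusted p = 0.0231). The call ended without Ang replicate 3 (adjusted p = 0.067), Con replicate 2 (0.119) or Con replicate 3 (0.139), and stood without Ang replicate 2 (0.0213).

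miR-6511b-5p stood at 1054, 1101 and 1058 CPM in exosomes Ang, against 2357, 2474 and 2394 CPM in exosomes Con, a log2 change of -1.003 (SE 0.057, 2.01-fold lower in Ang) and the smallest of the members. In cells it stood at 1549, 1352 and 1550 CPM with Ang, against 1269, 1422 and 1424 CPM with Con. The cell ranges overlapped, with log2 0.10 (95% interval -0.06 to 0.27, edgeR adjusted p = 0.544).

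miR-554 was scarce in cells. It stood at 159, 139 and 154 CPM in exosomes Ang, against 467, 479 and 447 CPM in exosomes Con, a log2 change of -1.46 (SE 0.102, 2.76-fold lower in Ang). The cell libraries held 5, 3 and 6 UMIs with Ang, against 4, 8 and 2 UMIs with Con, 14 in each group. This is near the floor of 3 counts, and the name missed the count filter in cells, so a change of its cell level was not detectable at this depth.

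**Figure D1:**
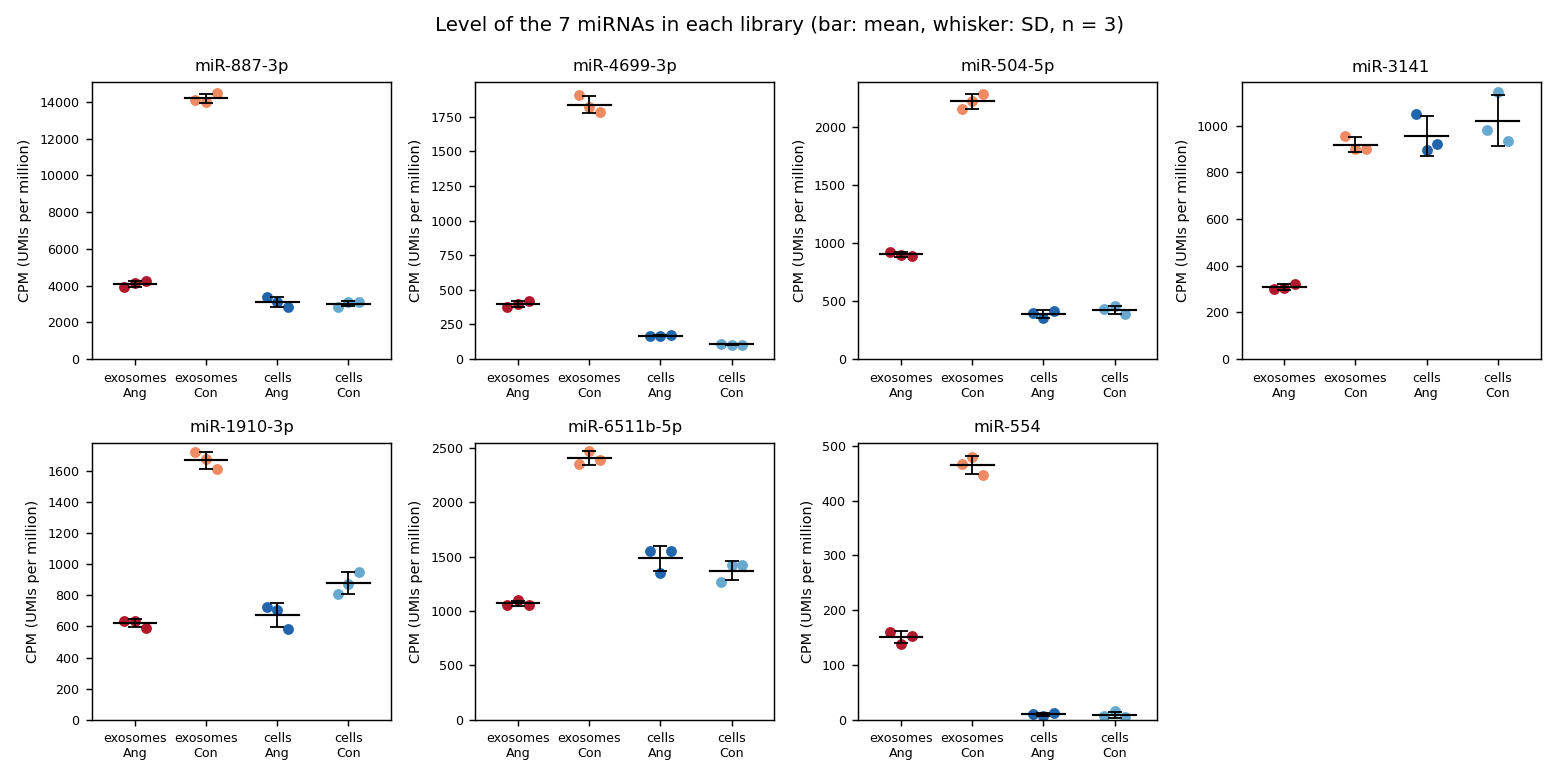
CPM (UMIs scaled to the library total, linear axis from 0) of each of the 7 miRNAs in the 12 libraries, as points, with the group mean as a bar and the SD as a whisker (n = 3). For each name the exosomes Ang libraries lie below the exosomes Con libraries (miR-887-3p at 3911 to 4237 against 14029 to 14491), while the cell groups overlap except for miR-4699-3p, higher in Ang, and miR-1910-3p, lower in Ang.

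Set against all names, the exosome contrast was broad. Of 1199 names tested in exosomes, 204 (17.0%) were lower and 204 (17.0%) higher in Ang at an adjusted p under 0.05 (408 or 34.0% in either direction), and 46 (3.84%) were lower by at least 2-fold. All 7 members, by their choice, were among the 46, with ranks between 6 and 50 from the lowest log2 change. In CPM 36.3% of tested names had every Ang library below every Con library, and 16.1% had every one above. The split of calls moved with the scaling, to 319 lower and 151 higher with library totals, 116 and 177 with DESeq2, and 161 and 248 in a fit to all 12 libraries. Library totals lowered the members' exosome changes by 0.16 to 0.17 on the log2 scale, as they did the median of all names, which was -0.22 with totals and -0.052 with TMM. Beside the members' falls, the leading exosome names miR-552-3p and miR-3972 together held 29.1% ± 0.088 of UMIs in exosomes Ang and 17.2% ± 0.18 in exosomes Con (SD, n = 3 each). With both taken out of the totals and the scaling, the members' log2 changes were higher by at most 0.040 and lay at -0.96 or lower. The main fit had already adjusted the totals by TMM, with factors of 0.929 to 0.957 in exosomes Ang and 1.018 to 1.1 in exosomes Con. The small shift therefore cannot show what part the rise of this pair had, which was not tested.

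In cells fewer names passed than in exosomes, and the changes of the members tested there were smaller than their exosome changes. Of 1630 names tested there, 62 (3.80%) were lower and 45 (2.76%) higher in Ang (107 or 6.56% in either direction), and 2 (0.123%) were lower by at least 2-fold. Fitting the 12 libraries together gave 65 lower and 29 higher. Of the 6 members tested, 1 fell (miR-1910-3p) and 1 rose (miR-4699-3p), and the intervals of the other 4 lay within -0.37 to 0.27 on the log2 scale. The median log2 change of these 6 was -0.040, beside 0.024 over all names tested in cells. In exosomes the median of all 7 members, which were chosen by that contrast, was -1.41, beside -0.052. With library ranges in CPM as the measure, 9.94% of tested names were wholly lower and 12.5% wholly higher in Ang cells. Of 1081 names tested in both compartments, 191 were lower in exosomes Ang; 165 of these did not pass in cells, 15 were also lower there and 11 were higher. miR-4699-3p was among the 11, with the lowest exosome change of them, and miR-1910-3p among the 15.

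**Figure D2:**
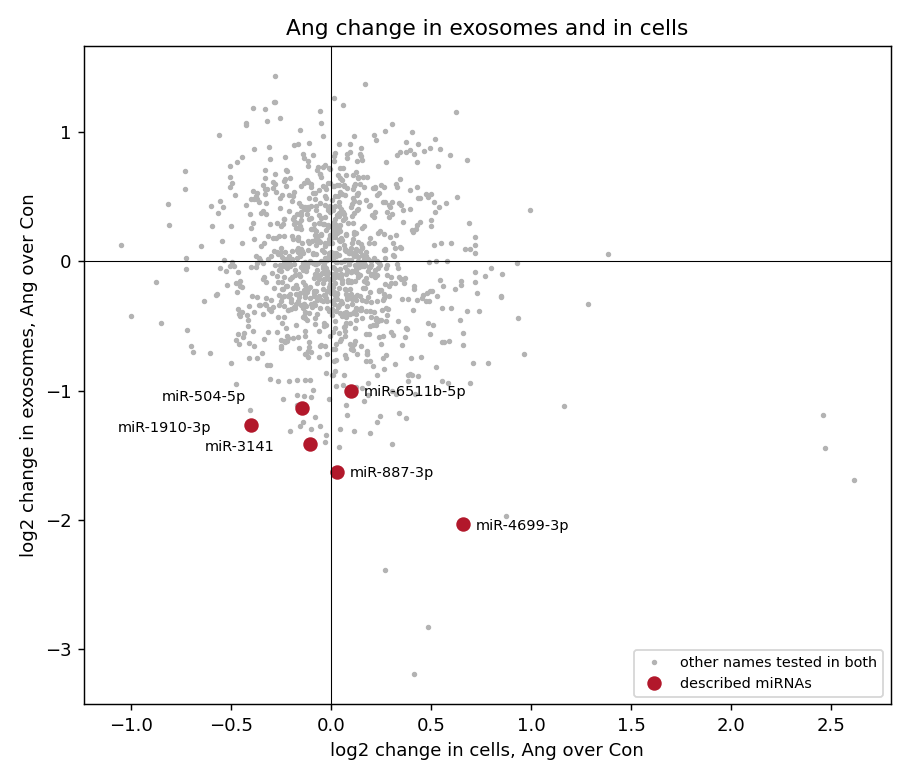
Log2 change of Ang over Con in exosomes (vertical) against that in cells (horizontal) for the 1081 names tested in both, with 6 of the 7 described miRNAs in red; miR-554 was not tested in cells. The red points lie between -2.04 and -1.003 on the vertical axis, and 4 of them close to 0 on the horizontal axis, with miR-4699-3p to the right at 0.66 and miR-1910-3p to the left at -0.40.

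The size of the exosome change beyond that of the cells was taken from one fit of all 12 libraries. Its values contain the contrast used to choose the members and so have no test. The exosome change minus the cell change was -2.56 (SE 0.133) on the log2 scale for miR-4699-3p, -1.52 (SE 0.110) for miR-887-3p and -1.36 (SE 0.438) for miR-554, which had 28 UMIs in cells. It was -1.16 (SE 0.139) for miR-3141 and -0.97 (SE 0.103) for miR-6511b-5p. The values nearest 0 were -0.85 (SE 0.117) for miR-504-5p and -0.73 (SE 0.133) for miR-1910-3p. With library totals each was further below 0, from -2.88 for miR-4699-3p to -1.04 for miR-1910-3p, and that of miR-554 was -1.91 without cells Con replicate 2 and -1.09 without cells Con replicate 3.

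The level in exosomes relative to cells differed widely among the members. The compartments were extracted with different kits, so compartment and kit cannot be told apart, and the ratios of mean CPM are a description. miR-554 stood 15.5 times higher in exosomes than in cells with Ang and 50.1 times with Con, on 14 cell UMIs in each group. For miR-4699-3p the ratio was 2.37 with Ang and 17.5 with Con, the widest gap between the conditions on the log2 scale. miR-504-5p had 2.32 with Ang and 5.21 with Con, and miR-887-3p 1.32 and 4.71. These 4 names were in every exosome library above every cell library of the same condition. miR-1910-3p and miR-6511b-5p had ratios of 0.922 and 0.722 with Ang and of 1.90 and 1.76 with Con. For both, the exosome libraries were above the cell libraries with Con; with Ang, those of miR-6511b-5p were below them and those of miR-1910-3p overlapped them. miR-3141 had 0.322 with Ang and 0.899 with Con, where exosome and cell libraries overlapped.

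**Figure D3:**
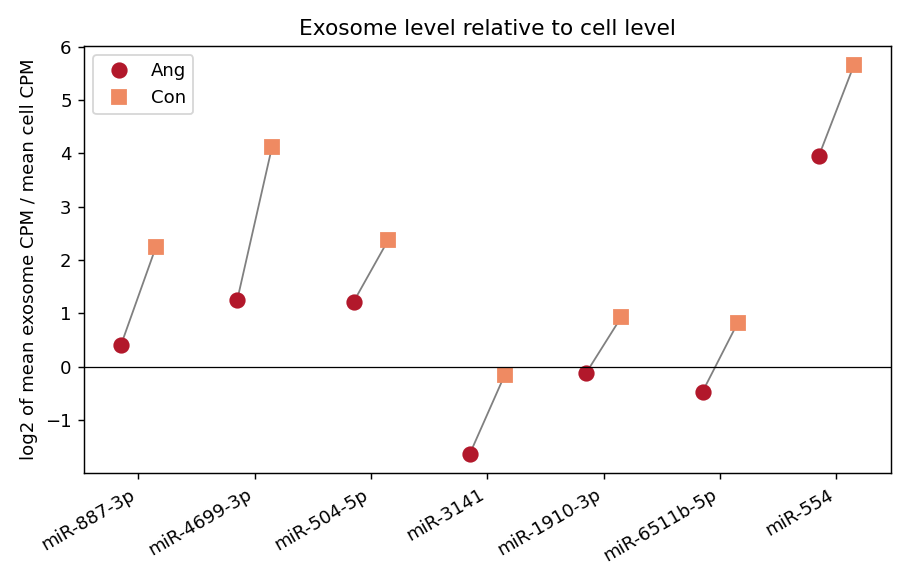
Log2 of the ratio of mean exosome CPM to mean cell CPM for each of the 7 miRNAs, with Ang as circles and Con as squares; 0 is an equal share in both compartments. Each circle lies below its square, from 3.95 against 5.65 for miR-554 to -1.63 against -0.15 for miR-3141, and miR-4699-3p has the longest line (1.25 against 4.13).

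The other arms of the hairpins were examined next, since both arms come from one precursor. In exosomes miR-1910 was the hairpin whose second arm was also abundant. miR-1910-5p stood at 2000, 1689 and 1780 CPM in exosomes Ang, against 1941, 1839 and 1756 CPM in exosomes Con. These ranges overlapped and the change did not pass (log2 0.15, SE 0.089, edgeR adjusted p = 0.241), with its sign turned by library totals (-0.019). In cells miR-1910-5p stood at 5121, 4665 and 4539 CPM with Ang, against 5565, 6230 and 6165 CPM with Con, and fell 1.27-fold (log2 -0.34, SE 0.066, edgeR adjusted p = 0.0048), a call that ended without Con replicate 2 (adjusted p = 0.0581). The 3p to 5p ratio of UMIs was 0.318, 0.375 and 0.331 in exosomes Ang, against 0.885, 0.91 and 0.917 in exosomes Con. In cells it was 0.142, 0.151 and 0.129 with Ang, against 0.146, 0.141 and 0.154 with Con. Both arms thus fell in cells, and their ratio there overlapped between the conditions. In exosomes the ratio was lower in each Ang library and the 5p arm did not pass. The exosome ratio contains the 3p values by which the member was chosen, so its difference is a description with no test.

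The members miR-1910-3p and miR-6511b-5p had 9 bases in a row in common, and miR-6511a-5p, which is no member, had them too. The shared run is in capitals.
hsa-miR-1910-3p: gAGGCAGAAGcaggaugaca
hsa-miR-6511b-5p: cugcAGGCAGAAGuggggcugaca
hsa-miR-6511a-5p: cAGGCAGAAGuggggcugacagg
miR-6511b-5p and miR-6511a-5p shared 21 bases in a row, so how reads were split between them is uncertain. miR-6511a-5p stood at 1138, 1085 and 1133 CPM in exosomes Ang, against 2480, 2513 and 2449 CPM in exosomes Con (log2 -0.98, SE 0.061, 1.98-fold lower in Ang). Since the pair may share reads, this exosome change is given as a description, like that of miR-6511b-5p. In cells it averaged 1610 ± 182 CPM with Ang and 1432 ± 43.4 CPM with Con (SD, n = 3 each) and did not pass (log2 0.16, adjusted p = 0.311). The ratio of miR-6511b-5p to miR-6511a-5p UMIs was 0.958 ± 0.049 in exosomes Ang, 0.971 ± 0.018 in exosomes Con, 0.924 ± 0.038 in cells Ang and 0.957 ± 0.034 in cells Con. It stayed near 1 in each group. Whether reads of one were counted for the other was not tested, so the pair is not taken as 2 separate measurements. The 9-base run was held by 3 (0.277%) of the 1082 names tested in exosomes that had a sequence. Those are the 3 names above, so it tells nothing beyond them.

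**Figure D4:**
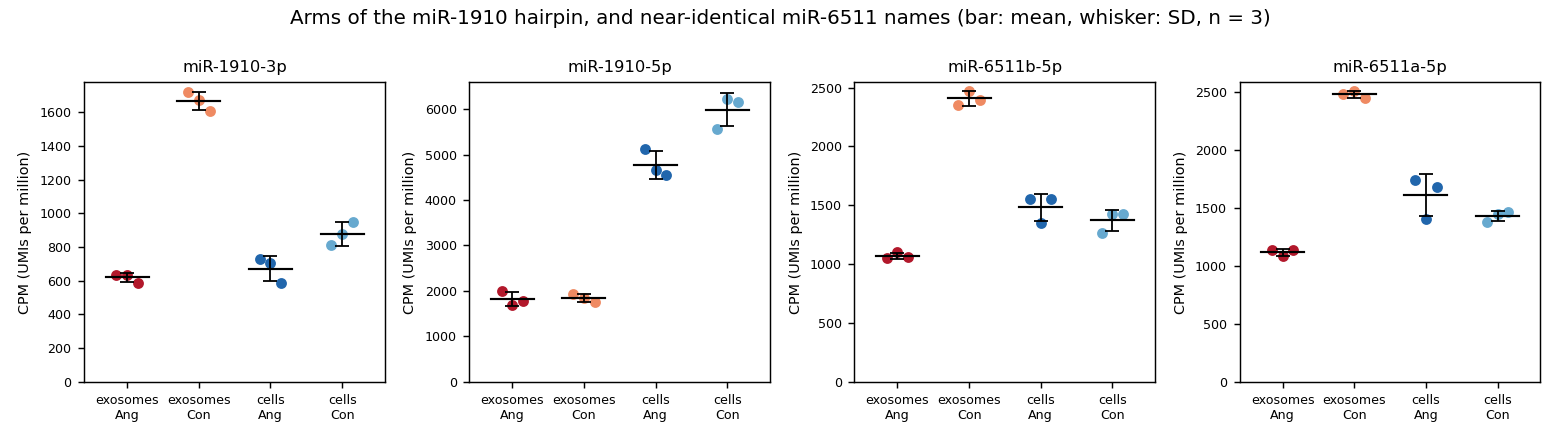
CPM (linear axis from 0) of both arms of the miR-1910 hairpin and of the near-identical miR-6511b-5p and miR-6511a-5p in each library, with the mean as a bar and the SD as a whisker (n = 3). miR-1910-3p is lower in exosomes Ang (590 to 636) than in exosomes Con (1610 to 1719), miR-1910-5p overlaps between them (1689 to 2000 and 1756 to 1941), and the miR-6511 panels show nearly the same levels.

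The remaining other arms were scarce in exosomes. miR-6511b-3p averaged 21.7 ± 8.28 CPM in exosomes Ang and 36.6 ± 2.58 CPM in exosomes Con (SD, n = 3 each; log2 -0.54, edgeR adjusted p = 0.133), and 822 ± 149 CPM in cells Ang and 849 ± 60.3 CPM in cells Con (log2 -0.059, adjusted p = 0.857). miR-6511a-3p averaged 10.6 ± 2.06 CPM in exosomes Ang and 13.1 ± 3.39 CPM in exosomes Con (log2 -0.12, adjusted p = 0.846) and did not pass in cells (log2 -0.20, adjusted p = 0.782). miR-4699-5p had 0 UMIs in exosomes Ang and 3 in exosomes Con, and miR-3141 and miR-554 have no second arm among the counted names.

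Short motifs described in the literature on export of miRNAs into exosomes were counted as letters on the mature strand. GGAG was in 1 of the 6 members with a sequence (miR-3141) and in 21.2% of the 1082 tested exosome names with one. CCCU was in miR-504-5p and in 16.7% of names, and GGCU in miR-6511b-5p and in 16.8%. Over all tested names that held them, the median log2 exosome change was -0.077 for GGAG, -0.057 for CCCU and -0.090 for GGCU, beside -0.048 over the 1082 names. No one of these motifs was shared by the members. Their GC content ran from 36.4% in miR-4699-3p to 73.7% in miR-3141, and the quartiles of tested names were 50.0% and 68.2%. Lengths ran from 19 to 24 bases, with a median of 22 over tested names.

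Names outside the members with the closest pattern over the 12 libraries were miR-3648 (Pearson r = 0.998 to the members' mean standardized level), miR-10400-5p (0.997), miR-1587 (0.996), miR-6511a-5p (0.996) and miR-412-3p (0.993). The 12 points fall into 4 groups, so r mostly reflects differences among the group levels. The levels used for r were log2 CPM with TMM factors taken over all 12 libraries. Those factors rescale cells against exosomes, so r does not show a shared order of the CPM given here. miR-412-3p averaged 2306 and 2340 CPM in cells Ang and Con, above 1083 and 1693 CPM in exosomes Ang and Con. miR-887-3p averaged 3110 and 3018 CPM in cells Ang and Con, below 4097 and 14205 CPM in exosomes Ang and Con. Members set against the mean of the other members ran from 0.842 for miR-3141 to 0.998 for miR-887-3p. miR-3648 averaged 307 ± 15.3 CPM in exosomes Ang and 816 ± 25.7 CPM in exosomes Con, and 275 ± 25.3 CPM in cells Ang and 301 ± 11.4 CPM in cells Con (SD, n = 3 each). Among non-members with a mean of at least 100 CPM in exosomes, the lowest adjusted p for a fall belonged to miR-10400-5p (log2 -1.11, edgeR adjusted p = 4.17e-07), miR-3960 (-1.06, 1.03e-06), miR-10400-3p (-1.40, 1.57e-06), miR-382-5p (-1.34, 2.33e-06) and miR-6511a-5p. None of these passed in cells, where their adjusted p ran from 0.121 for miR-10400-5p to 0.976 for miR-3960. Falls in exosomes with no call in cells were therefore not particular to the members.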

How the data were processed

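Small RNA of AC16 cells and of their exosomes was measured in 12 libraries, 4 groups of 3, grouped by their titles. Per the labels' protocols, miRNeasy Micro was the kit for cells and exoRNeasy Maxi the kit for exosomes; library construction used QIAseq miRNA, which tags molecules with unique molecular identifiers (UMIs). The submitters' processing notes name cutadapt and GRCh38, with aligner, miRNA annotation and counter not given in the sources used here. The values the authors deposited are raw UMI counts per miRNA name, per the file headers. Exosome files listed 2580 names; the 76 others, at most 20 counts in any cell library, were taken as 0 there.

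CPM was computed from library totals. Ang was compared with Con within cells and within exosomes, each on 6 libraries, with edgeR 4.0.16 in R 4.3.3: filterByExpr, TMM factors, quasi-likelihood test, two-sided, Benjamini-Hochberg adjustment over all tested names, threshold 0.05. Intervals are the fitted log2 change plus or minus the 95% t quantile times its SE. The fit was tested on simulated counts with 200 changed names. Among 1630 names in cells it recovered 78% of 2-fold and 48% of 1.5-fold changes. Among 1199 names in exosomes it recovered 82% and 40%. The false share was 5.26% in cells and 2.4% in exosomes. In the exosome data 408 names were called, so these rates describe the simulated counts only. Alternatives were RLE factors, library totals, DESeq2 1.42.0, limma-voom 3.58.1, other count filters, a replicate block, leaving out each library, fitting all 12 libraries, and omitting miR-552-3p and miR-3972.

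The members, the lists of arms, paralogs and markers, and the tests were chosen with earlier results of these data known. Beyond the members, the names given are their other arms, paralogs and shared-seed names, the 5 non-members closest in pattern, the 5 with the lowest adjusted p among names lower in exosomes Ang at a mean of at least 100 CPM, and the pair that led exosomes. Sequences are RefSeq, which matched 2367 of 2656 names.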

Additional observations from a re-analysis of the deposited data

Results flagged for a closer look

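miR-4699-3p was lower in each exosomes Ang library than in each exosomes Con library (log2 -2.04, 1076 against 5316 UMIs) and higher in each cells Ang library than in each cells Con library (log2 0.66, 239 against 155 UMIs). It is listed because the compartments moved in opposite directions under the same contrast. The difference between them was not tested, since the exosome contrast chose the name. No other member had groups that were apart in opposite directions.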

How the results depend on the processing

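The members' exosome changes kept their sign under all 15 alternatives for each name, with log2 values from -1.79 to -1.54 for miR-887-3p, -2.20 to -1.95 for miR-4699-3p, -1.30 to -1.05 for miR-504-5p, -1.57 to -1.32 for miR-3141, -1.43 to -1.18 for miR-1910-3p, -1.17 to -0.92 for miR-6511b-5p and -1.63 to -1.36 for miR-554, the lowest with library totals. The exosome change minus the cell change stayed below 0 for each member under 16 alternatives, and library totals gave the lowest value for each but miR-554 (-1.68, with -1.91 to -1.09 over the libraries left out). Both measures reuse the exosome libraries by which the members were chosen. Their kept signs are therefore a description and no support for the falls. In cells, leaving out one library gave 0.62 to 0.71 for miR-4699-3p, -0.46 to -0.31 for miR-1910-3p and -0.028 to 0.096 for miR-887-3p. The first lost its call without Con replicate 2 (adjusted p = 0.0529) and the second without Ang replicate 3, Con replicate 2 or Con replicate 3 (0.067 to 0.139); the other alternatives kept both. miR-887-3p had log2 -0.022 in a fit to all 12 libraries. The cell count of 107 calls was 70 without Ang replicate 1, 38 without Con replicate 2 and 38 without Con replicate 3, a range of 38 to 97 over the libraries left out, and the exosome count of 408 ran from 293 to 470 over all alternatives. miR-554 could be fitted in cells only with no count filter (log2 0.0087, adjusted p = 0.998) or with all 12 libraries (log2 -0.018, adjusted p = 0.985). Signs turned for miR-1910-5p in exosomes with library totals (-0.019). Leaving out one library also turned signs for miR-6511a-3p in exosomes (-0.34 to 0.066) and in cells (-0.49 to 0.0012), and in cells for miR-6511b-3p (-0.15 to 0.086) and miR-4725-5p (-0.12 to 0.79). The causes were not tested.

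In cells the correlations between the deviations of same-numbered libraries of Ang and Con were -4e-05, 0.054 and -0.019. In exosomes they were 0.236, 0.235 and -0.165. Between libraries of unlike number they ran from -0.040 to 0.047 in cells and from -0.424 to 0.312 in exosomes. With 3 same-numbered pairs in each compartment, these values cannot decide whether the numbers mark pairs. The main fits made no use of the numbers. With a replicate block 132 names passed in cells and 398 in exosomes, and miR-4699-3p (adjusted p = 0.00218) and miR-1910-3p (adjusted p = 0.00896) kept their calls.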

Other observations

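The balance of hairpin arms differed between the compartments for miR-6511b, in the same direction with Ang and with Con. The 5p arm had 2871 UMIs against 61 of the 3p arm in exosomes Ang and 6950 against 106 in exosomes Con, while cells Ang had 2114 against 1156 and cells Con 2009 against 1242. The ratio of 5p to 3p per library was 55.2 ± 23.7 in exosomes Ang and 66.2 ± 6.44 in exosomes Con, against 1.86 ± 0.460 in cells Ang and 1.62 ± 0.011 in cells Con (SD, n = 3 each). miR-6511a-5p can share reads with the 5p arm, and different kits were used for the compartments, so kit and compartment cannot be told apart. For miR-1910 the 3p to 5p ratio was likewise higher in exosomes, at 0.341 ± 0.030 with Ang and 0.904 ± 0.016 with Con, against 0.141 ± 0.011 in cells Ang and 0.147 ± 0.0069 in cells Con.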
